A study of Mus musculus with 8 samples.

Results

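Glucose breakdown was followed gene by gene in 8 mouse thymic lymphomas, through 41 gene names that cover glucose uptake, glycolysis, lactate formation and export, the entry of pyruvate into the mitochondrion and the pentose phosphate pathway. A gene was included when its symbol stood in the deposited expression table, and where a symbol had several transcript entries the one with the highest mean over all libraries was used. Of the 41 names, 39 were found among 13681 symbols. Aldoc had no entry, and Pkm was listed under its older symbol Pkm2. All mice were C57BL/6 and labelled p53-/-, and received an adenovirus in the lymphoma at 10 weeks of age. The tissue was taken 48 hours later. The control group (n = 2) is labelled ΔNfl/fl;p53-/- and received Ad-mCherry, a virus that carries only a red fluorescent protein. The ΔNp63-labelled group (n = 3, ΔNp63Δ/Δ;p53-/-) and the ΔNp73-labelled group (n = 3, ΔNp73Δ/Δ;p53-/-) received Ad-CRE-mCherry, which also carries Cre recombinase. ΔNp63 and ΔNp73 are the forms of these p53 relatives that lack the N-terminal transactivation domain. Control and deletion groups differ in the virus as well as in genotype, so effects of Cre and of the deletion cannot be told apart, and the control label does not name the floxed gene. The labels do not say whether the libraries of a group came from separate animals, and p-values then measure only the spread between these samples.

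Glycolysis turns glucose into pyruvate. Glucose enters through GLUT transporters, is phosphorylated by hexokinase and is committed at phosphofructokinase, and the later enzymes regain ATP. Pyruvate is either reduced to lactate by lactate dehydrogenase and exported by monocarboxylate transporters, or enters the mitochondrion through pyruvate dehydrogenase, which the PDH kinases switch off. The pentose phosphate pathway branches off at glucose 6-phosphate and supplies NADPH and ribose. Dividing lymphoid cells are known for a high glycolytic flux and lactate output.

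Expression was given as FPKM (fragments per kilobase of transcript, scaled for library size), quantile-normalised between libraries by the authors. The depth of the libraries is unknown. One library, ΔNp63-labelled replicate 2, was unlike the rest. Its median correlation with the other libraries over 12921 symbols was 0.848, against 0.915 to 0.957 for the others. Results are therefore given from a fit with all 8 libraries and from a 7-library fit that leaves it out. Of the thymocyte markers, 14 of 14 were present and none was at 0. They summed to 5248 and 6003 FPKM for the controls, 3523, 2298 and 4516 for the ΔNp63-labelled tumours and 2428, 3148 and 3870 for the ΔNp73-labelled tumours, so both controls lay above every other library and ΔNp63-labelled replicate 2 was lowest. Despite the p53-/- label, the most abundant Trp53 entry was at 10.96 to 81.0 FPKM. The labels do not give the deleted stretch, so this entry checks nothing about the genotype. The most abundant Trp63 entry had 5.21 and 3.38 FPKM for the controls, 6.57, 1.05 and 9.91 for the ΔNp63-labelled tumours and 13.8, 11.3 and 6.38 for the ΔNp73-labelled tumours. It was not lower in all 3 ΔNp63-labelled libraries than in the controls, so directions are drawn between groups as labelled. Trp73 had no entry under that symbol, so the ΔNp73 label could not be checked against its gene.

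Some genes of the pathway were highly expressed in every tumour, and others were low. Gapdh, the enzyme that oxidises glyceraldehyde 3-phosphate, was the most abundant, with a mean of 1115 FPKM, at or above 99.7% of all symbols. Eno1, Ldha, Pkm2 and Aldoa followed with means of 236.3, 209.7, 206.6 and 160.7 FPKM. At the low end, Hk3, Slc2a6, Pfkfb4 and Eno2 had means of 2.6, 1.63, 1.36 and 0.969 FPKM. The summed level of the 39 genes ranged from 2705 to 3738 FPKM over the 8 libraries, and Gapdh made up between 30.9% and 42.0% of it.

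Levels of single genes varied between the tumours to very different degrees. Slc2a3, a high-affinity glucose transporter, kept within 1.23-fold over all 8 libraries and Hk1, the widespread hexokinase, within 1.29-fold. Slc16a3 (the lactate exporter MCT4) spanned 39.9-fold, Pdk4 (a PDH kinase) 39.0-fold, Eno3 (the muscle type of enolase) 13.8-fold and Hk3 (a hexokinase abundant in myeloid cells) 9.67-fold.

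**Figure D1:**
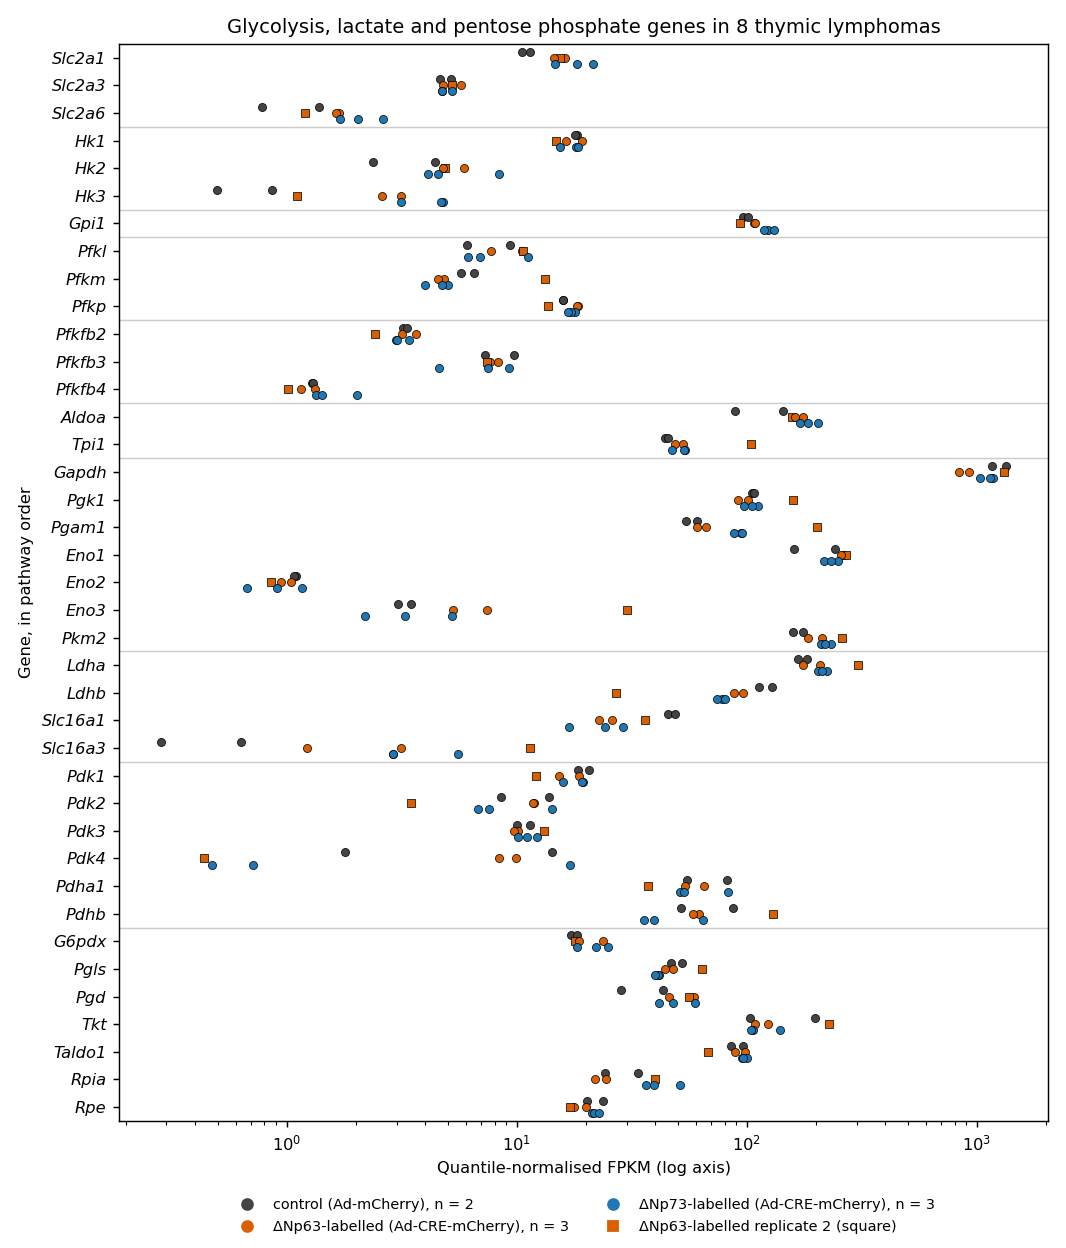
Quantile-normalised FPKM (log axis) of 39 genes of glucose breakdown in pathway order, 1 point per library (grey control, orange ΔNp63-labelled, blue ΔNp73-labelled, square ΔNp63-labelled replicate 2). Gapdh lies at 835 to 1341 FPKM, while Hk3, Slc16a3 and Pdk4 are spread widely along the axis.

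No gene of the set passed the threshold in the 8-library fit. Tests used limma on log2(FPKM + 1) with Benjamini-Hochberg adjustment over 12921 symbols and a threshold of 0.05, and log2 fold changes (log2FC) on this scale understate the change of low genes. Of 39 members, 0 were called in the ΔNp63-labelled group against control, where 0.0929% of all symbols were called. The count was also 0 in the ΔNp73-labelled group against control and between the deletion groups, with 0.0542% of all symbols called in each. At an unadjusted p under 0.05, 6 members stood out for ΔNp63-labelled against control (15.4%, all symbols 13.0%), 7 for ΔNp73-labelled against control (17.9%, all symbols 21.3%) and 2 between the deletion groups (5.13%, all symbols 10.5%). These shares lie near or below those of all symbols. The members' median log2FC was 0.07, 0.05 and 0.02 in the 3 comparisons, beside -0.02, -0.07 and -0.02 over all symbols tested.

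In the 7-library fit, 4 of 39 members changed in the ΔNp63-labelled group against control (10.3%), where 22.5% of all symbols were called, 11.7% higher and 10.8% lower. Hk3 rose, and Gapdh, Ldhb and Slc16a1 fell. In the ΔNp73-labelled group, 10 of 39 changed (25.6%), beside 33.0% of all symbols, 16.8% higher and 16.1% lower. Slc2a1, Slc2a6, Hk3, Gpi1, Aldoa, Pgam1, Pkm2 and Slc16a3 rose, and Ldhb and Slc16a1 fell. Between the deletion groups, limma called 0 members (all symbols 0.149%), and 4 had an unadjusted p under 0.05, beside 15.6% of all symbols. Both comparisons with control use the same 2 control libraries. The ΔNp73-labelled comparison holds no value of the library left out, so its log2FC are the same in both fits and only the estimated spread and the genes tested changed.

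**Figure D2:**
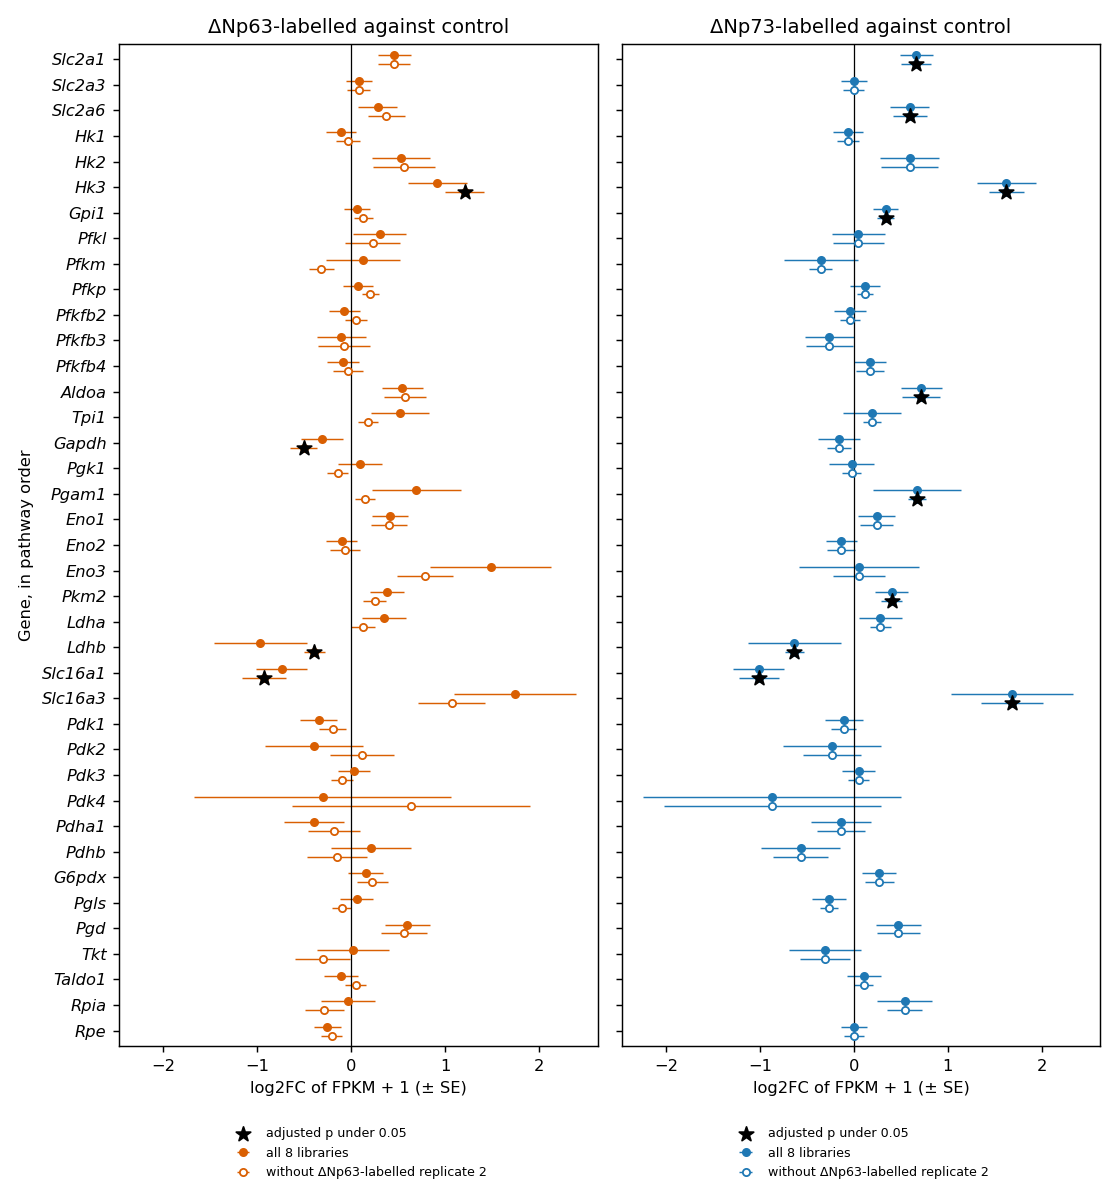
Log2FC of FPKM + 1 (± SE) of each gene against control for the ΔNp63-labelled (left) and ΔNp73-labelled (right) groups, filled from all 8 libraries and open without ΔNp63-labelled replicate 2. Stars mark an adjusted p under 0.05, reached only in the fit without that library, by 4 genes on the left and 10 on the right.

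Among the glucose transporters, Slc2a1 was above both controls in every library of the deletion groups, Slc2a6 was in every ΔNp73-labelled library, and Slc2a3 varied little. Slc2a1 encodes GLUT1, the basal glucose transporter, and is a known target of the hypoxia-inducible factor HIF-1. The 250 bases before its RefSeq start (GRCm38.p6, chr4:119108495-119108744, plus strand) are shown because it is the member that leads uptake. The core of the hypoxia response element, ACGTG or GCGTG on either strand, is in capitals (CACGT and CACGC are the same letters read on the other strand), 61 and 36 bases before the start.
Slc2a1: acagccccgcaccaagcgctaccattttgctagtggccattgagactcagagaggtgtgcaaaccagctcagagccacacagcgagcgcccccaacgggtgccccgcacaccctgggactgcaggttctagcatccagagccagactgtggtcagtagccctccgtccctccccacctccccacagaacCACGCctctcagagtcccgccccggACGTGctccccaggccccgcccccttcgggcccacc

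Slc2a1 was at 11.4 and 10.5 FPKM for the controls, 16.2, 15.4 and 14.5 for the ΔNp63-labelled tumours and 18.2, 21.4 and 14.6 for the ΔNp73-labelled tumours. Both controls lay below every other library. Separation from the controls was common, at 30.3% of all symbols for the ΔNp63-labelled and 63.4% for the ΔNp73-labelled group. The log2FC against control was 0.46 (SE 0.18, unadjusted p = 0.033, adjusted p = 0.343) for ΔNp63-labelled and 0.66 (SE 0.18, adjusted p = 0.115) for ΔNp73-labelled in the 8-library fit. In the 7-library fit the ΔNp73-labelled rise passed the threshold (log2FC 0.66, SE 0.16, adjusted p = 0.019) and the ΔNp63-labelled difference did not (0.46, SE 0.17, adjusted p = 0.099).

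Fibroblast markers also set both controls lowest, as Slc2a1, Aldoa, Pkm2 and Slc16a3 did. The 10 markers, all present and none at 0, summed to 121.2 and 126.4 FPKM for the controls, 350.5, 165.4 and 286.2 for the ΔNp63-labelled tumours and 479.8, 375.4 and 452.8 for the ΔNp73-labelled tumours. In the 7-library fit 6 rose in the ΔNp63-labelled and 10 in the ΔNp73-labelled group, beside 11.7% and 16.8% of all symbols. With 8 libraries 0 and 1 (Col1a2) rose, beside 0.0929% and 0.0542% of all symbols called in either direction. Their part in the differences of these members was not tested.

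Slc2a6, which encodes GLUT6, a transporter held largely inside the cell, was at 1.37 and 0.782 FPKM for the controls, 1.69, 1.20 and 1.64 for the ΔNp63-labelled tumours and 1.70, 2.63 and 2.05 for the ΔNp73-labelled tumours. The ΔNp73-labelled libraries were above all others, by a narrow margin. Its log2FC against control was 0.59 for the ΔNp73-labelled group (adjusted p = 0.175, and 0.043 in the 7-library fit). Slc2a3, which encodes GLUT3, stayed at 4.62 to 5.71 FPKM, with a log2FC of 0.08 and 0.00 against control. Within a library FPKM is per transcript length, so levels of genes of one step can be set side by side. The Slc2a3 share of the 3 transporters was 28.8% and 29.1% for the controls, 20.99%, 23.9% and 26.1% for the ΔNp63-labelled tumours and 19.2%, 17.8% and 22.1% for the ΔNp73-labelled tumours. The controls had the highest shares.

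Hexokinase phosphorylates glucose and so traps it in the cell. Hk1 was the main hexokinase in every library, at 18.2 and 17.96 FPKM for the controls, 19.1, 14.8 and 16.3 for the ΔNp63-labelled tumours and 15.4, 18.1 and 18.4 for the ΔNp73-labelled tumours. The groups overlapped. Hk2, the inducible form, was at 2.38 and 4.39 FPKM for the controls and between 4.12 and 8.37 in the other libraries, and did not pass the test in any comparison (log2FC 0.53 and 0.59 against control, adjusted p = 0.507 and 0.311).

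Hk3 had the smallest p of the set. It was at 0.496 and 0.866 FPKM for the controls, 3.14, 1.10 and 2.59 for the ΔNp63-labelled tumours and 4.80, 4.66 and 3.15 for the ΔNp73-labelled tumours. The 3 groups did not overlap, with the controls lowest and the ΔNp73-labelled libraries highest by a narrow margin. ΔNp63-labelled replicate 2 lay close to the controls. In the 8-library fit the log2FC was 0.92 (SE 0.31, adjusted p = 0.311) for ΔNp63-labelled and 1.62 (SE 0.31, adjusted p = 0.079) for ΔNp73-labelled against control, and 0.71 (SE 0.28, adjusted p = 0.472) between the deletion groups. Without replicate 2, Hk3 rose against control in ΔNp63-labelled tumours (log2FC 1.21, SE 0.21, adjusted p = 0.009) and in the ΔNp73-labelled group (1.62, SE 0.19, adjusted p = 0.002).

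The Hk3 share of the hexokinases was 2.35% and 3.73% for the controls, 11.2%, 5.33% and 10.9% for the ΔNp63-labelled tumours and 16.8%, 17.0% and 12.2% for the ΔNp73-labelled tumours. Hk1 held 86.4% and 77.4% in the controls and 53.9% to 71.7% elsewhere. Shares of isozymes were tested with exact two-sided permutation tests, 63 in all, where 2 against 3 libraries cannot go below 0.2 and 3 against 3 not below 0.1. None could therefore pass the threshold.

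Summed macrophage markers and summed neutrophil markers were each lowest in the same libraries as Hk3, namely both controls and ΔNp63-labelled replicate 2. The summed level of 11 macrophage markers was 394.6 and 450.2 FPKM for the controls, 1058, 441.8 and 1132 for the ΔNp63-labelled tumours and 1342, 1234 and 1038 for the ΔNp73-labelled tumours, with 11 of 12 listed markers present and none at 0. ΔNp63-labelled replicate 2 lay among the controls in these markers, whereas in Hk3 it was close to them but above both. All 11 rose in both comparisons with control in the 7-library fit, beside 11.7% and 16.8% of all symbols. In the 8-library fit limma called 0, with 8 and 11 at an unadjusted p under 0.05, beside 13.0% and 21.3% of all symbols. Neutrophil markers (11 of 12 present, Elane at 0 in ΔNp63-labelled replicate 2) summed to 175.6 and 680.1 FPKM for the controls and 774.0, 56.6 and 777.1 for the ΔNp63-labelled tumours. In the ΔNp73-labelled tumours they summed to 948.2, 1587 and 1216, above every other library, as in Hk3. The macrophage sum of ΔNp73-labelled replicate 3 was instead below those of ΔNp63-labelled replicates 1 and 3. In the neutrophil markers control replicate 2 lay near ΔNp63-labelled replicates 1 and 3, and ΔNp63-labelled replicate 2 was below both controls, unlike in Hk3. The part of these cells in the Hk3 difference was not tested, and in bulk tissue fewer cells of a type and less RNA per cell cannot be told apart.

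**Figure D3:**
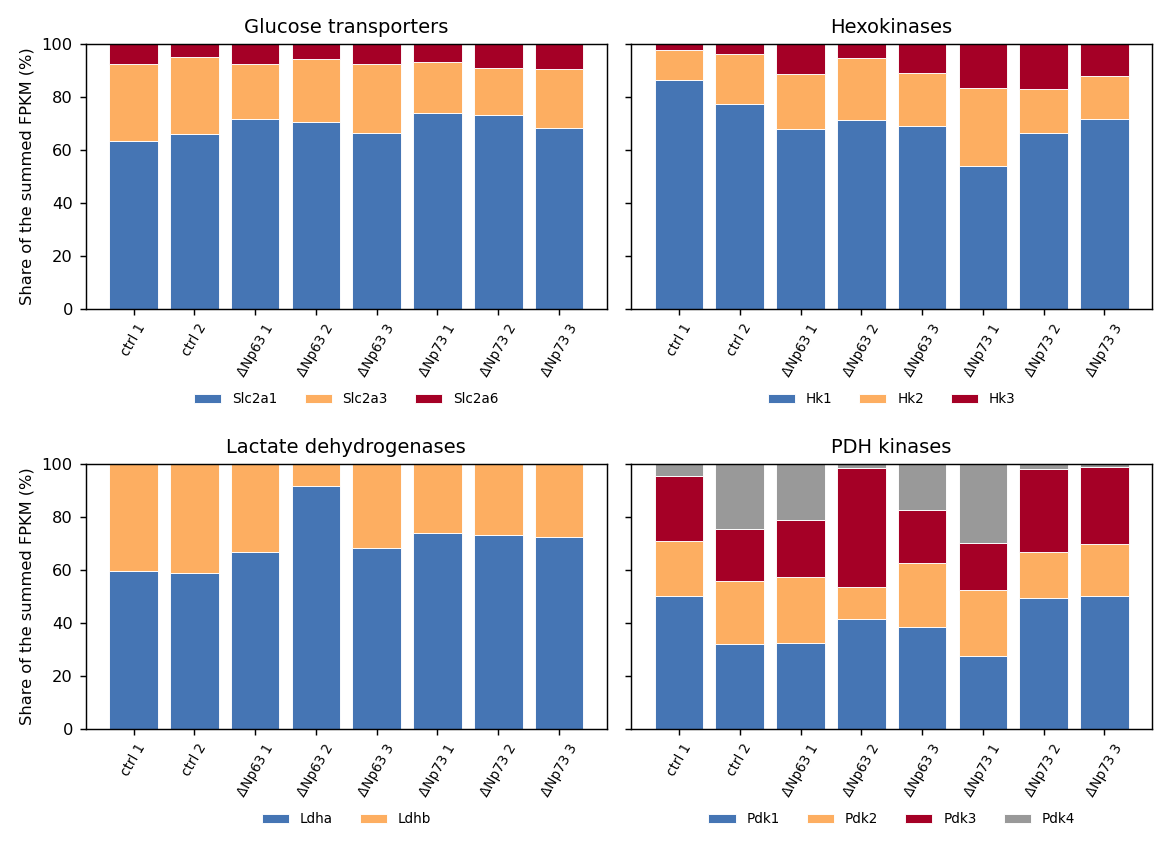
Share (%) of the summed FPKM of each isozyme family taken by each gene, 1 bar per library, for glucose transporters, hexokinases, lactate dehydrogenases and PDH kinases. Hk3 takes 2.35% and 3.73% in the controls and up to 17.0% in the ΔNp73-labelled libraries, and Ldha takes 91.9% in ΔNp63-labelled replicate 2.

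Gpi1, which converts glucose 6-phosphate to fructose 6-phosphate, was at 95.9 and 100.9 FPKM for the controls, 107, 92.9 and 108 for the ΔNp63-labelled tumours and 123.1, 131.4 and 119.2 for the ΔNp73-labelled tumours. The ΔNp73-labelled libraries were above all others. The log2FC against control was 0.34 (SE 0.14, adjusted p = 0.22) for this group in the 8-library fit, and the rise passed in the 7-library fit (SE 0.09, adjusted p = 0.030).

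The subunits of phosphofructokinase, which commits sugar to glycolysis, did not pass the test in either fit. Pfkp, the platelet-type subunit, was the most abundant, at 15.8 FPKM for both controls, 18.5, 13.7 and 18.2 for the ΔNp63-labelled tumours and 17.97, 17.2 and 16.6 for the ΔNp73-labelled tumours. Pfkm, the muscle-type subunit, was at 13.3 FPKM in ΔNp63-labelled replicate 2 and at 3.97 to 6.53 in the other 7 libraries. Pfkl, the liver-type subunit, ranged from 6.06 to 11.1 FPKM with overlapping groups. Of the enzymes that set the level of the activator fructose 2,6-bisphosphate, Pfkfb3 was the most abundant, at 9.77 and 7.29 FPKM for the controls, 7.65, 7.40 and 8.32 for the ΔNp63-labelled tumours and 4.60, 9.26 and 7.52 for the ΔNp73-labelled tumours. Pfkfb2 (2.43 to 3.63 FPKM) and Pfkfb4 (1.01 to 2.01 FPKM) were lower, and none of the 3 was called.

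Aldoa, the aldolase that splits fructose 1,6-bisphosphate, was at 88.4 and 143.8 FPKM for the controls, 174.9, 157.6 and 161.4 for the ΔNp63-labelled tumours and 204.5, 184.8 and 169.8 for the ΔNp73-labelled tumours. Both controls were below every other library but differed widely from each other. Its log2FC was 0.54 (SE 0.22, adjusted p = 0.361) and 0.72 (SE 0.22, adjusted p = 0.139) against control in the 8-library fit, and the ΔNp73-labelled rise passed in the 7-library fit (SE 0.20, adjusted p = 0.034). With only the higher control kept, its ΔNp73-labelled log2FC was 0.37. Tpi1, which interconverts the triose phosphates, was at 44.2 and 45.6 FPKM for the controls and 47.4 to 53.9 in all other libraries except ΔNp63-labelled replicate 2, where it was at 104.5. It did not pass in any comparison.

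In the energy-yielding steps, Gapdh was at 1158 and 1341 FPKM for the controls, 835, 1309 and 920 for the ΔNp63-labelled tumours and 1031, 1177 and 1145 for the ΔNp73-labelled tumours. ΔNp63-labelled replicate 2 lay within the range of the controls, and the other 2 libraries of its group were the lowest of all 8. The log2FC for ΔNp63-labelled against control was -0.31 (SE 0.23, adjusted p = 0.584) with 8 libraries, and Gapdh fell by 0.51 on the log2 scale (SE 0.14, adjusted p = 0.045) with 7. Pgk1, which makes the first ATP of this phase, was at 91.7 to 111.6 FPKM in 7 libraries and at 158.6 in ΔNp63-labelled replicate 2. Mouse Gapdh and several other glycolytic genes have processed pseudogenes, and how reads shared with them were counted is not given in the sources used here, so their levels are uncertain to that extent.

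Pgam1, which moves the phosphate group of phosphoglycerate, was at 54.6 and 60.8 FPKM for the controls, 60.9, 201.7 and 66.5 for the ΔNp63-labelled tumours and 94.4, 94.9 and 88.0 for the ΔNp73-labelled tumours. The ΔNp73-labelled libraries lay close together above the controls, and replicate 2 of the ΔNp63-labelled group was far above all. The ΔNp73-labelled log2FC was 0.67 with an SE of 0.47 in the 8-library fit, and with an SE of 0.10 (adjusted p = 0.003) in the 7-library fit. Between the deletion groups the log2FC was -0.02 (SE 0.42, adjusted p = 0.983) with 8 libraries and 0.53 (SE 0.10, adjusted p = 0.107) with 7, so the difference rests on leaving out ΔNp63-labelled replicate 2.

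Eno1, the main enolase, was at 161.1 and 241.0 FPKM for the controls and 217.3 to 268.7 in the others, and was not called. Eno3 was at 3.45 and 3.04 FPKM for the controls, 7.45, 30.1 and 5.30 for the ΔNp63-labelled tumours and 2.19, 3.25 and 5.25 for the ΔNp73-labelled tumours. In this entry all ΔNp63-labelled libraries were above all others, by a narrow margin for replicate 3. Its difference between the deletion groups had a log2FC of -1.43 (SE 0.57, unadjusted p = 0.039, adjusted p = 0.472), which was -0.73 (SE 0.28, adjusted p = 0.283) without replicate 2. The other, less abundant Eno3 entry did not show this order. It was at 1.60, 9.38 and 1.70 FPKM for the ΔNp63-labelled tumours and 2.05, 2.12 and 1.90 for the ΔNp73-labelled tumours. There the ΔNp73-labelled libraries lay above ΔNp63-labelled replicates 1 and 3. The controls had 0.873 and 1.01 FPKM in it. Eno2, the neuronal type, stayed at 0.669 to 1.16 FPKM.

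Pyruvate kinase ends glycolysis. Its gene, now named Pkm, carries 2 mutually exclusive exons of equal length, M1 and M2, and the M2 form is known from dividing cells. The table held an entry for each form. Both exons (GENCODE M21 on GRCm38, plus strand, M1 at chr9:59675029-59675195 and M2 at chr9:59675568-59675734) are 167 bases long, and the capitals mark the 64 bases at which they differ place by place (61.7% identical).
M1: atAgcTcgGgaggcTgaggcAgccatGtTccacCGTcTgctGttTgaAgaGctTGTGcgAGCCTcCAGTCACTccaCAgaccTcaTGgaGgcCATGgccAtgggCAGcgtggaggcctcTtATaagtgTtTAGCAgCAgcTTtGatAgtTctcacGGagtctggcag
M2: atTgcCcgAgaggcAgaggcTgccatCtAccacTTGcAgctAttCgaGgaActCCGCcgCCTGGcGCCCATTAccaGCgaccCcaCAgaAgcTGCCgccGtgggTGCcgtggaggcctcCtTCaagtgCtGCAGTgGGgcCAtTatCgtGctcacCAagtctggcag

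The M2 entry was at 158.6 and 174.9 FPKM for the controls, 184.4, 260.1 and 212.9 for the ΔNp63-labelled tumours and 210.6, 231.9 and 219.4 for the ΔNp73-labelled tumours. Both controls were below every other library. The log2FC was 0.38 (SE 0.18, adjusted p = 0.417) and 0.40 (SE 0.18, adjusted p = 0.245) in the 8-library fit, and the ΔNp73-labelled rise passed in the 7-library fit (SE 0.11, adjusted p = 0.031). The M1 entry took 2.80% and 3.64% of both entries for the controls, 4.77%, 3.65% and 4.11% for the ΔNp63-labelled tumours and 6.38%, 3.80% and 3.16% for the ΔNp73-labelled tumours. M2 thus led in every library, and exact two-sided permutation tests of the M1 share gave p = 0.2 and 0.4 against control and 0.9 between the deletion groups. The entries share most of their sequence, so the split is the authors' estimate.

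In the lactate step, Slc16a1, Slc16a3 and Ldhb each set both controls apart from every other library. Of all symbols, 30.3% had no overlap for ΔNp63-labelled against control and 63.4% for ΔNp73-labelled against control. Ldha encodes the lactate dehydrogenase subunit that favours lactate formation, and Ldhb the heart-type subunit. Slc16a1 (MCT1) carries lactate both ways and Slc16a3 (MCT4) mainly exports it. The 250 bases before the RefSeq start of 3 of them are shown because Slc16a1 and Ldhb fell in the 7-library fit and Ldha did not (GRCm38.p6, Slc16a1 at chr3:104638414-104638663 on the plus strand, Ldha at chr7:46845554-46845803 on the plus strand and Ldhb at chr6:142507958-142508207 on the minus strand). Capitals mark the hypoxia element core ACGTG or GCGTG on either strand. The E-box CACGTG, the motif bound by MYC and other helix-loop-helix factors, always holds that core on both strands.
Slc16a1: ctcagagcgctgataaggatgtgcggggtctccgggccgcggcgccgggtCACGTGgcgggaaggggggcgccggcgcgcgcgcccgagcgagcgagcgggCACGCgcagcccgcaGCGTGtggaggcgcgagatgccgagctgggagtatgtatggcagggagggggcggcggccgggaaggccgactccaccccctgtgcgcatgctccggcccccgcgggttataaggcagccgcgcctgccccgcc
Ldha: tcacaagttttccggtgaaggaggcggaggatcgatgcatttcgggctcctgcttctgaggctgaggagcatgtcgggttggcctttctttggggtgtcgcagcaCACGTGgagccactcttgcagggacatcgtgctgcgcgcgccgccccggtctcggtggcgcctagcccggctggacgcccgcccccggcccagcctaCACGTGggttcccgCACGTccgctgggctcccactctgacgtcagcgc
Ldhb: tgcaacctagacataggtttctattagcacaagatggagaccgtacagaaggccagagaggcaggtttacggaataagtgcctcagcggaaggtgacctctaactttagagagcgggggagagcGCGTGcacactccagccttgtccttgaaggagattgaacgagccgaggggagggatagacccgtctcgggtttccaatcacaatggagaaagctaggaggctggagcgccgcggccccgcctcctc

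The E-box begins 145 and 48 bases before the Ldha start shown and 200 bases before the Slc16a1 start, and these letters are not in the Ldhb or Slc2a1 window. RefSeq gives Ldha a second start, whose window (chr7:46846832-46847081, plus strand) holds 0 E-boxes and 1 hypoxia core. Of the 38 members with a RefSeq window, 6 held the E-box (15.8%: Ldha, Pdk2, Pfkfb2, Pfkfb3, Pfkm and Slc16a1), beside 6.86% of 27025 symbols with a window of the same length. The hypoxia core was in 34 of 38 (89.5%), beside 41.5% of symbols. A symbol with several start sites counts if any window holds the motif. The symbols were not matched to the members for GC content, expression or number of start sites. What gave the higher shares was not tested. These matches describe the letters and not binding. Slc16a1, which fell in the 7-library fit, and Ldha, which was not called, both hold the E-box in a window shown.

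Slc16a1 was at 45.3 and 48.9 FPKM for the controls, 22.8, 36.2 and 25.8 for the ΔNp63-labelled tumours and 29.1, 16.8 and 24.3 for the ΔNp73-labelled tumours. Both controls were above every other library. Its log2FC against control was -0.74 (SE 0.27, adjusted p = 0.327) for ΔNp63-labelled and -1.01 (SE 0.27, adjusted p = 0.116) for ΔNp73-labelled in the 8-library fit. In the 7-library fit it fell by 0.93 (SE 0.23, adjusted p = 0.030) and by 1.01 (SE 0.21, adjusted p = 0.012) on the log2 scale.

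Proliferation genes shared the 3 highest libraries with Slc16a1, namely both controls and ΔNp63-labelled replicate 2, while the order of the other 5 differed. The 14 markers, all present and none at 0, summed to 1369 and 1331 FPKM for the controls, 355.1, 1156 and 350.9 for the ΔNp63-labelled tumours and 352.7, 416.2 and 583.2 for the ΔNp73-labelled tumours. All 14 fell in both comparisons with control in the 7-library fit, beside 10.8% and 16.1% of all symbols. With 8 libraries limma called 0, with 6 and 9 at an unadjusted p under 0.05, beside 13.0% and 21.3% of all symbols. ΔNp63-labelled replicate 2, the library nearest the controls in these markers, was also nearest to them in Slc16a1. Their part in the Slc16a1 difference was not tested.

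Slc16a3 was at 0.630 and 0.285 FPKM for the controls, 3.13, 11.4 and 1.22 for the ΔNp63-labelled tumours and 2.90, 5.54 and 2.90 for the ΔNp73-labelled tumours. Every deletion library was above both controls. The log2FC was 1.74 (SE 0.65, adjusted p = 0.335) and 1.68 (SE 0.65, adjusted p = 0.204) with 8 libraries. With 7 libraries the ΔNp73-labelled rise passed (SE 0.33, adjusted p = 0.010) and the ΔNp63-labelled difference of 1.07 did not (SE 0.36, adjusted p = 0.076). Slc16a1 remained the more abundant transporter in every library, with 98.6% and 99.4% of their sum in the controls and 75.2% to 95.5% in the others.

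Ldhb was at 112.9 and 129.2 FPKM for the controls, 87.7, 26.9 and 96.0 for the ΔNp63-labelled tumours and 78.1, 74.2 and 80.2 for the ΔNp73-labelled tumours. The controls were again above all others, and ΔNp63-labelled replicate 2 was far below. With 8 libraries the log2FC was -0.97 (SE 0.49, adjusted p = 0.455) and -0.63 (adjusted p = 0.479). With 7 it fell by 0.39 (SE 0.11, adjusted p = 0.047) in the ΔNp63-labelled group and by 0.63 (SE 0.10, adjusted p = 0.005) in the ΔNp73-labelled group. The summed thymocyte markers had the same 3 highest libraries (both controls and ΔNp63-labelled replicate 3) and the same lowest one as Ldhb. Of the 14 markers, limma called 0 with 8 libraries in either comparison with control. At an unadjusted p under 0.05 there were 2 and 4, beside 13.0% and 21.3% of all symbols. With 7 libraries 1 fell in the ΔNp63-labelled (Thy1) and 8 in the ΔNp73-labelled group, beside 10.8% and 16.1% of all symbols. Their part in the Ldhb difference was not tested.

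Ldha was at 167 and 183.5 FPKM for the controls, 175.3, 303.5 and 208.3 for the ΔNp63-labelled tumours and 223.8, 204.5 and 211.4 for the ΔNp73-labelled tumours, and was not called in either fit. The ratio of Ldha to Ldhb was 1.48 and 1.42 for the controls, 1.998, 11.3 and 2.17 for the ΔNp63-labelled tumours and 2.86, 2.75 and 2.64 for the ΔNp73-labelled tumours. Both controls were below every other library, and the exact two-sided permutation p was 0.2 for each group against control, the smallest that 2 against 3 libraries allow. In share of the pair, Ldha held 59.7% and 58.7% for the controls, 66.6%, 91.9% and 68.4% for the ΔNp63-labelled tumours and 74.1%, 73.4% and 72.5% for the ΔNp73-labelled tumours.

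**Figure D4:**
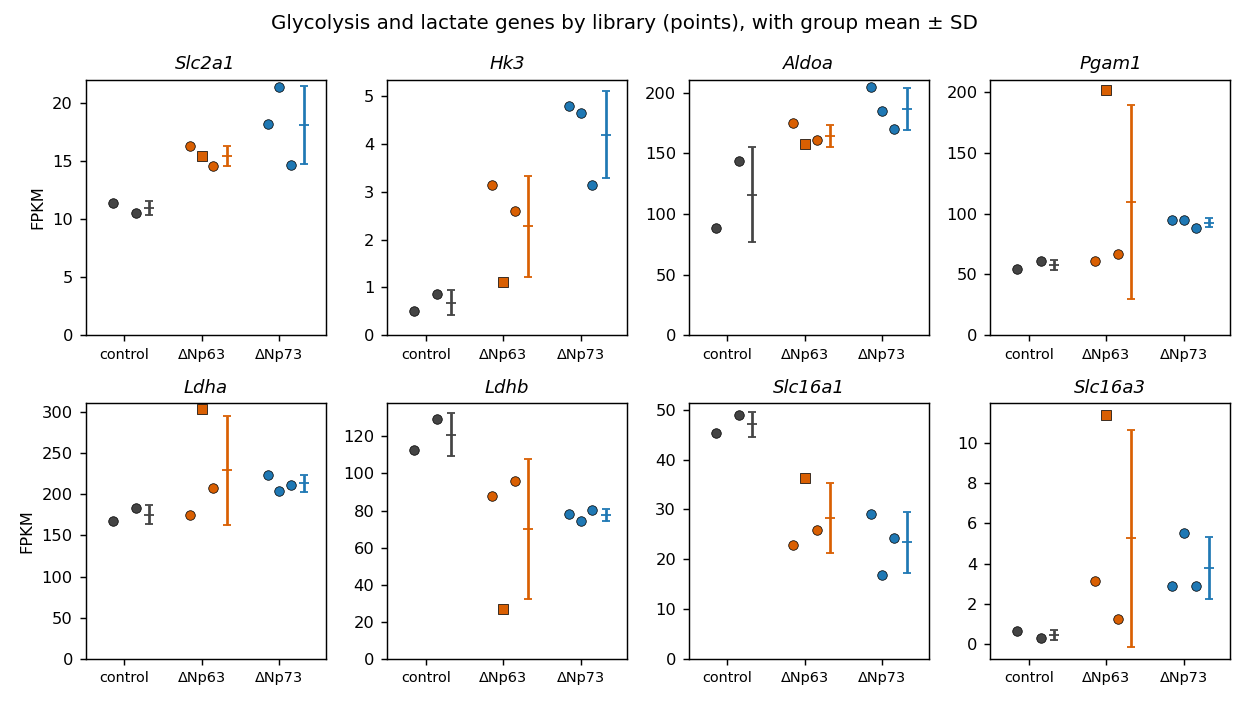
FPKM of 8 glycolysis and lactate genes by library (points, square ΔNp63-labelled replicate 2), with the mean ± SD of each group beside them. Slc2a1, Aldoa and Slc16a3 are lowest and Ldhb and Slc16a1 highest in the 2 controls, and replicate 2 is at 201.7 FPKM for Pgam1.

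At the entry to the mitochondrion limma called 0 of 6 members in either fit, also at an unadjusted p under 0.05. Pdha1 and Pdhb encode the subunits of the first enzyme of pyruvate dehydrogenase. Pdhb, the most abundant member of this step, was at 51.7 and 87.0 FPKM for the controls, 62.1, 129.8 and 58.5 for the ΔNp63-labelled tumours and 64.3, 35.8 and 39.5 for the ΔNp73-labelled tumours. Pdha1 ranged from 37.3 to 83.0 FPKM. In both genes the groups overlapped, and ΔNp63-labelled replicate 2 was the highest library for Pdhb and the lowest for Pdha1, though their products form one complex. Pdk1, Pdk2 and Pdk3 stayed at 12.1 to 20.5, 3.46 to 14.2 and 9.75 to 13.2 FPKM.

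Pdk4, a kinase abundant in fat and muscle, fell into high and low libraries across the groups. It was at 1.79 and 14.2 FPKM for the controls, 9.89, 0.435 and 8.33 for the ΔNp63-labelled tumours and 17.0, 0.713 and 0.474 for the ΔNp73-labelled tumours. Adipocyte markers (7 of 8 present, none at 0) summed to 158.2 and 927.2 FPKM for the controls, 2062, 101.5 and 1401 for the ΔNp63-labelled tumours and 2474, 209.7 and 216.9 for the ΔNp73-labelled tumours. The 4 libraries high in Pdk4 were the 4 high in these markers, and Pck1, an enzyme of glucose and glycerol synthesis abundant in fat and named after its values were seen, was also at 18.9 to 37.9 FPKM in those 4 and at 0.455 to 4.12 in the others. Pdk4 made up 17.2% to 29.7% of the PDH kinases in those libraries and 1.24% to 4.37% in the rest. Skeletal and heart muscle markers (4 of 12 present, 1 value at 0) summed to 65.9 FPKM in ΔNp73-labelled replicate 1, the library highest in Pdk4. They summed to 3.17 to 4.76 FPKM in the other libraries. A contribution of fat or muscle to these values was not tested.

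**Figure D5:**
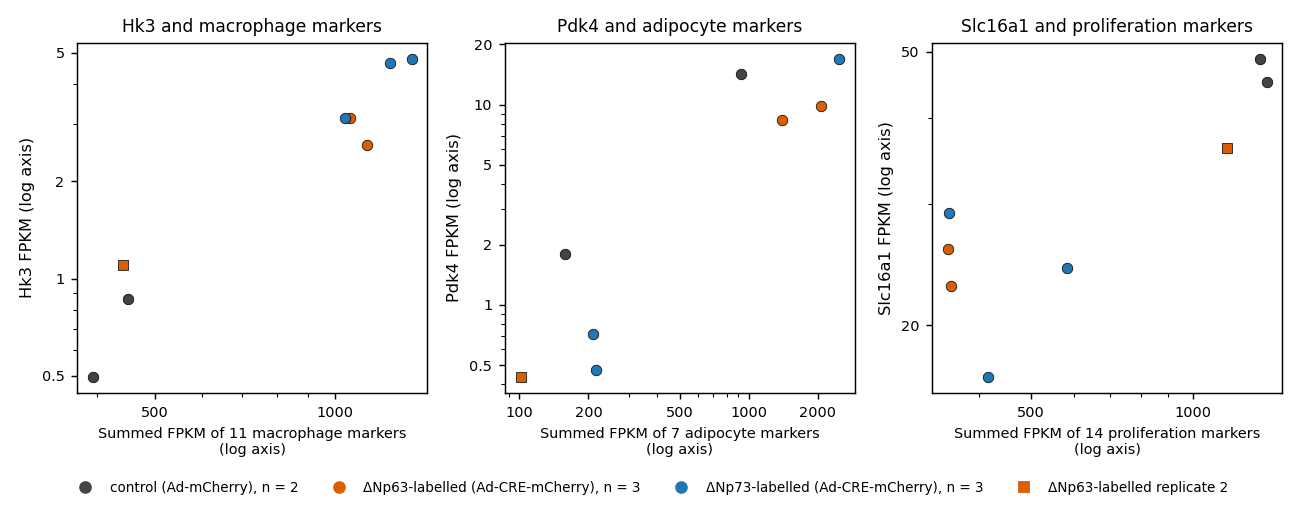
FPKM of Hk3, Pdk4 and Slc16a1 against the summed FPKM of macrophage, adipocyte and proliferation markers in the 8 libraries (all axes log). Libraries low in Hk3 have macrophage sums of 394.6 to 450.2 FPKM, the 4 libraries high in Pdk4 have adipocyte sums of 927.2 to 2474 FPKM, and the 3 libraries highest in Slc16a1 have proliferation sums of 1156 to 1369 FPKM.

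In the pentose phosphate pathway 0 of 7 members were called by limma in either fit. At an unadjusted p under 0.05 there was 1 with 8 libraries (Pgd), and with 7 libraries Pgls and Rpia for ΔNp73-labelled against control and Rpia between the deletion groups. G6pdx, which makes the first NADPH, was at 17.2 and 18.3 FPKM for the controls and 17.9 to 24.9 in the others. Pgd, which makes the second, was at 28.3 and 43.4 FPKM for the controls, 59.2, 55.9 and 45.9 for the ΔNp63-labelled tumours and 59.8, 47.7 and 41.4 for the ΔNp73-labelled tumours. The ΔNp63-labelled libraries were above both controls, with a log2FC of 0.59 (SE 0.24, unadjusted p = 0.041, adjusted p = 0.361).

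Tkt, the transketolase that links the pathway back to glycolysis, was the most abundant member of the branch, at 103.7 and 197.1 FPKM for the controls, 108.4, 226.6 and 123.8 for the ΔNp63-labelled tumours and 138.9, 106.5 and 104.3 for the ΔNp73-labelled tumours. Its groups overlapped. Taldo1, the transaldolase, lay between 67.5 and 100.4 FPKM. Rpia, which forms ribose 5-phosphate, was at 24.1 and 33.6 FPKM for the controls, 21.9, 39.7 and 24.5 for the ΔNp63-labelled tumours and 39.5, 36.3 and 51.2 for the ΔNp73-labelled tumours. All ΔNp73-labelled libraries were above the controls, and the 7-library log2FC was 0.54 against control (SE 0.19, adjusted p = 0.065) and 0.83 between the deletion groups (SE 0.19, adjusted p = 0.137). Pgls and Rpe, the lactonase and the epimerase, ranged from 39.9 to 64.1 and from 17.0 to 23.7 FPKM.

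ΔNp63-labelled replicate 2 held the extreme value of many genes. It was the highest of the 8 libraries in 13 members and the lowest in 12, so 25 of 39 (64.1%) had an extreme there, beside 64.3% of all symbols tested. Against the median of the other libraries, Eno3 was 8.73-fold, Slc16a3 3.92-fold, Pgam1 3.04-fold and Pfkm 2.76-fold in it, while Ldhb was at 0.307, Pdk2 at 0.293 and Pdk4 at 0.0523 of that median.

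Groups without overlap were common among all symbols. For ΔNp63-labelled against control, 15 of 39 members (38.5%) had no overlap, beside 30.3% of all symbols. Of these, 11 were higher (28.2%, all symbols 12.6%) and 4 lower (10.3%, all symbols 17.7%). Against control the ΔNp73-labelled group had 18 such members (46.2%), beside 63.4% of all symbols, 14 higher (35.9%, all symbols 27.7%) and 4 lower (10.3%, all symbols 35.7%). Between the deletion groups there were 8 (20.5%), beside 18.9%. The share was 12.8% higher and 7.69% lower, beside 10.3% and 8.58% of all symbols. Slc2a6, Hk3, Gpi1, Pfkfb4 and Rpe were higher in the ΔNp73-labelled libraries and Eno1, Eno3 and Pgls lower.

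Other genes of sugar metabolism, outside the 39, gave few calls as well. Of 56 listed, 44 were present and 40 tested, and limma called 0 in each of the 3 comparisons with 8 libraries. At an unadjusted p under 0.05 there were 8, 7 and 2 of the 40, beside 13.0%, 21.3% and 10.5% of all symbols. The share was above that of all symbols for ΔNp63-labelled against control and below it in the other comparisons. Prps2, which makes the ribose donor PRPP for nucleotide synthesis, was at 98.6 and 103.5 FPKM for the controls, 48.1, 27.2 and 60.7 for the ΔNp63-labelled tumours and 48.7, 56.4 and 64.3 for the ΔNp73-labelled tumours. Both controls were above every other library. Its 7-library log2FC was -0.89 (SE 0.16, adjusted p = 0.011) for ΔNp63-labelled and -0.84 (SE 0.15, adjusted p = 0.007) for ΔNp73-labelled.

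With 7 libraries, 4 of the 40 changed in the ΔNp63-labelled group (10.0%, all symbols 22.5%), where Pck2, the mitochondrial PEP carboxykinase, rose, and Prps2, Galk1 and Pdpr fell. In the ΔNp73-labelled group 9 changed (22.5%, all symbols 33.0%). Both shares are below those of all symbols. Of the 9, Slc2a13, Pck2 and Pygb rose, and Bpgm, Pdpr, Prps1, Prps2, Pgm2l1 and Galk1 fell. Galk1, the galactokinase, was at 19.8 and 14.9 FPKM for the controls, 8.93, 37.5 and 8.72 for the ΔNp63-labelled tumours and 7.37, 7.75 and 9.503 for the ΔNp73-labelled tumours. Only ΔNp63-labelled replicate 2 was above the controls, and its ΔNp63-labelled log2FC was -0.23 (adjusted p = 0.90) with 8 libraries and -0.89 (adjusted p = 0.012) with 7. Between the deletion groups limma called 0 of the 40, with 4 at an unadjusted p under 0.05, beside 15.6% of all symbols.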

How the data were processed

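RNA was sequenced from 8 mouse lymphoma samples (total RNA, TRIzol LS, Illumina TruSeq RNA kit, per the labels' protocols). The authors deposited 1 table of FPKM per RefSeq transcript, marked as quantile-normalised, and the sorted values of the libraries are nearly equal above the lowest entries. The submitters' processing notes name TopHat2 2.0, Cufflinks 2.0 and the build mm9 without their roles. Depth is unknown, and 2330 of the 16589 entries (14.0%), the lowest ones, differed between libraries by over 1% after sorting. The 35 date-like symbols were restored.

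From there, 1 entry per symbol was kept (highest mean), log2(FPKM + 1) was tested with limma 3.58.1 in R 4.3.3 (intensity trend, two-sided, all 8 libraries in 1 model, 5 residual degrees of freedom) over the 12921 symbols that reached 1 FPKM in 2 or more libraries. All 39 members passed that filter. The same script was run on simulated data with equal spread in every library and no outlying library. That run does not show how the fit behaves with a library like ΔNp63-labelled replicate 2. The members and all lists were chosen with earlier results of these data known. Values in every library are given for members past the threshold in a fit with all libraries or without 1, those with an unadjusted p under 0.05 with all libraries, and the most abundant of each step. Genes of other lists are named where called or among the 2 with the smallest p. Promoters come from RefSeq (GRCm38.p6) and Pkm exons from GENCODE M21. Their coordinates belong to those builds and not to mm9. Replicate numbers follow the order of the samples in each group and pair no samples.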

Additional observations from a re-analysis of the deposited data

How the results depend on the processing

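Of the recomputed log2FC of members given with one, 332 kept their sign and their side of the threshold, 38 newly passed it and 8 changed sign. The sign changed for Pgam1 between the deletion groups, at -0.02 in the fit with all libraries, which was 0.54 with array weights and ran from -0.32 to 0.53 with 1 library left out. It was 0.53 without ΔNp63-labelled replicate 2, and the other change of sign was to 0.016, when ΔNp73-labelled replicate 3 was left out. It also changed for Slc2a3 in ΔNp73-labelled against control, at 0.00, which was 0.054 with median-ratio scaling, 0.047 with array weights and -0.066 to 0.065 with 1 library left out. The numbers of all symbols changed, 12 for ΔNp63-labelled and 7 for ΔNp73-labelled against control and 7 between the deletion groups, depended on the spread estimate. With array weights they were 4480, 6569 and 344, and with only the 2 groups compared in the fit 5 and 3890 in the first and second comparison. For ΔNp73-labelled against control a pseudocount of 0.1 gave 18 and median-ratio scaling 14. Leaving out 1 library at a time gave 3 to 2882, 0 to 4212 and 6 to 19, with the highest count of each range without ΔNp63-labelled replicate 2. Of the 39 members, array weights called 7 in the first and 14 in the second comparison, and the fit of only 2 groups called 8 for ΔNp73-labelled against control. Leaving out 1 library gave 0 to 4, 0 to 10 and 0 to 0 members, above 0 only without ΔNp63-labelled replicate 2. The median log2FC of the members in the second comparison ran from -0.032 without control replicate 1 to 0.155 without control replicate 2, so its sign rests on 1 control. Where 1 control is left, it is assumed to vary like the other groups. No paired analysis was possible because the labels give no replicate numbers or pairs. Of the isozyme shares, 454 recomputed values moved by less than the spread between libraries and 8 by more. The cause of these changes was not tested. The depth behind each value is unknown, the controls are 2 libraries, and a p above the threshold does not show equal levels.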

Other observations

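Regulators of glucose use were measured beside the pathway. Of 18 listed, 15 were present and 14 tested, and limma called 0 with 8 libraries in each comparison. At an unadjusted p under 0.05 there were 0, 1 and 2, beside 13.0%, 21.3% and 10.5% of all symbols. With 7 libraries, Hif1a, Arrdc4 and Txnip of the 14 were called for ΔNp63-labelled against control, beside 22.5% of all symbols. For ΔNp73-labelled against control these were Hif1a, Arrdc4, Nfe2l2 and Egln3, beside 33.0%. Both shares are below those of all symbols. In the fit without ΔNp63-labelled replicate 2, Hif1a, the oxygen-regulated subunit of HIF-1, rose in both comparisons with control (log2FC 0.36, SE 0.10, adjusted p = 0.045 for ΔNp63-labelled, and 0.62, SE 0.09, adjusted p = 0.004 for ΔNp73-labelled). Its level was 37.2 and 39.8 FPKM for the controls, 48.6, 26.4 and 50.6 for the ΔNp63-labelled tumours and 60.1, 63.05 and 56.4 for the ΔNp73-labelled tumours. Replicate 2 of the ΔNp63-labelled group was the only one below the controls, and with it the ΔNp63-labelled log2FC was 0.06 (adjusted p = 0.947).

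Arrdc4, a relative of Txnip that restrains glucose uptake, also rose in both comparisons in that fit. It was at 2.98 and 3.15 FPKM for the controls, 8.35, 2.45 and 7.59 for the ΔNp63-labelled tumours and 7.68, 6.15 and 6.43 for the ΔNp73-labelled tumours. The ΔNp63-labelled log2FC was 1.14 (adjusted p = 0.002) and, with replicate 2, 0.68 (adjusted p = 0.508). Txnip itself rose in ΔNp63-labelled tumours in that fit (log2FC 0.83, SE 0.22, adjusted p = 0.039). It was at 51.1 and 61.2 FPKM for the controls, 79.0, 25.7 and 126.7 for the ΔNp63-labelled tumours and 80.5, 69.0 and 67.3 for the ΔNp73-labelled tumours. Replicate 2 was below both controls, and with all 8 libraries the log2FC was 0.19 (SE 0.57, adjusted p = 0.922). In the ΔNp73-labelled group of the fit without replicate 2, Nfe2l2 rose (0.75, SE 0.12, adjusted p = 0.005) and Egln3, an oxygen-sensing prolyl hydroxylase, fell by 0.78 on the log2 scale (SE 0.11, adjusted p = 0.003). Myc, named after its values were seen, was at 92.3 FPKM in ΔNp63-labelled replicate 2 and at 15.4 to 21.7 FPKM in the other 7 libraries.

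Pfkfb3 had several transcript entries that did not move together. The entry used here had its lowest value, 4.60 FPKM, in ΔNp73-labelled replicate 1, where another entry was at 10.6 FPKM, its second highest value. That other entry ran from 1.64 to 10.7 FPKM over the 8 libraries. These splits are the authors' estimates from entries that share sequence.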
